A study of Mus musculus with 18 samples.

Results

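NRF2, the transcription factor encoded by Nfe2l2, was followed at the RNA level in mouse oocytes together with its regulators and a pair of its best known target genes. The set held 10 genes, chosen by symbol among the 28252 genes of the deposited TPM table (53715 genes were counted in all). They were Nfe2l2 and its relative Nfe2l1, Keap1, Cul3 and Sqstm1, which govern the stability of the protein, Bach1, Mafg and Mafk, which meet it on DNA, and the targets Nqo1 and Hmox1. All 10 were listed. Between NTY and sham none of the genes tested passed at any stage, where the same test called at most 0.0095% of all genes. Nqo1 and Bach1 were too low to be tested in early follicles, and Hmox1 in MII oocytes. The clearest separations were in MII oocytes. There Mafk and Bach1 were higher in each of the 3 NTY libraries than in any sham library, as were 2.3% of all genes tested. These NTY libraries also detected fewer genes (12782 to 13608 against 15442 to 18239). Nqo1 was read in the MII libraries alone and Hmox1 in the libraries of early follicles alone. Stage and library protocol cannot be told apart there. Of genes well counted in MII libraries 4.56% had the layout of Nqo1, and of those well counted in early follicles 5.1% had that of Hmox1.

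In cells at rest, NRF2 is bound by KEAP1, which hands it to an E3 ubiquitin ligase built on CUL3, so that the protein is made and destroyed continuously. Electrophiles and oxidants modify KEAP1, NRF2 then escapes, enters the nucleus, pairs with a small Maf protein and binds the antioxidant response element in genes of detoxification and glutathione synthesis. Much of this control acts on the protein, so the RNA levels given here are levels of transcripts and not of NRF2 activity. In the ovary the pathway is studied for the protection of oocytes against oxidative and toxic injury during their long rest in follicles.

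The study sequenced bulk RNA from 18 libraries, that is 6 groups of 3. Primordial follicle oocytes, primary follicle oocytes and MII oocytes (arrested in metaphase of the second meiotic division) were each taken under a condition labelled sham and a condition labelled NTY, which the labels leave unexplained. All mice were of the C57Bl/6j x CBA/J cross, all libraries were marked in vivo, and no age, dose or genetic alteration is given. Labelled protocols describe microdissected cells, whose RNA was pooled by oocyte stage and amplified before coding transcripts were captured, and collected oocytes, processed by Smart-seq II. The 12 libraries of primordial and primary follicles were taken as microdissected and the 6 MII libraries as collected. An effect of stage and an effect of the protocol cannot be told apart between these sets, and no test was made across them. Nothing says that replicates came from separate mice, and p-values therefore measure the spread between these libraries, which may be technical.

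Depth was 15149564 to 29205503 counts in the microdissected libraries and 8652089 to 9978830 in the MII libraries, so that 3 counts stood for 0.103 to 0.198 CPM (counts scaled to a sum of 1000000 in a library) and 0.301 to 0.347 CPM. These floors, like the intervals of count ratios below, cover counting error only. Oocyte markers, 15 genes, summed to 7890 to 11300 CPM in MII libraries and to 4.11 to 1450 CPM in microdissected ones, where granulosa markers (14 genes) reached 778 to 5000 CPM and stroma markers (6 genes) 1380 to 17900 CPM. Microdissected libraries thus held follicle and stroma transcripts besides those of oocytes, and in bulk RNA fewer cells of a type and less RNA per cell cannot be told apart. Primordial NTY replicate 3 stood apart with the sum of 4.11 CPM and 6 of 15 oocyte genes above 3 counts. Replicates 2 and 3 of the primary NTY group carry nearly the same library code and may share material, which the labels do not settle. Fold changes of members between NTY and sham, and the DESeq2 calls named in the pathway lists, are also given without the first, or with the latter pair summed. The Mafk difference between stages and the tests of macrophage markers are not.

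Before the levels, the stretches upstream of 4 members are shown, because NRF2 with a small Maf reads a short DNA motif and several members of the pathway carry it themselves. The core searched was TGACNNNGC on either strand, in windows from 250 bases before to 50 bases after each start in RefSeq (GRCm38.p6). Windows were found for 9 of the 10 genes, with Hmox1 the exception, and 3 of the 9 (Nfe2l2, Mafg and Mafk) held the core, which stood in 14.0% of the 27025 genes with a window. Each sequence below runs 5′ to 3′ on the strand of its gene, with the core in capitals. Nfe2l2 is at chr2:75704794-75704913 on the minus strand, Mafg at chr11:120633678-120633797 on the minus strand, Mafk at chr5:139791416-139791535 on the plus strand and Bach1 at chr16:87698834-87698953 on the plus strand. Bach1 is printed beside Mafk because these were the members whose groups did not overlap in MII oocytes, and its window lacked the core.
Nfe2l2: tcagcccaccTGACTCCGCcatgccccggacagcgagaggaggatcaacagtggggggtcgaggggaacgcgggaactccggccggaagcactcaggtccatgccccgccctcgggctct
Mafg: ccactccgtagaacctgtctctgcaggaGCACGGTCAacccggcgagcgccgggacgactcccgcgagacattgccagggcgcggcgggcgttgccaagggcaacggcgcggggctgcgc
Mafk: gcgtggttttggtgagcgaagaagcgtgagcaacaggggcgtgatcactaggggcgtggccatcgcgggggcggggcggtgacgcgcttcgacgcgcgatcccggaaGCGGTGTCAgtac
Bach1: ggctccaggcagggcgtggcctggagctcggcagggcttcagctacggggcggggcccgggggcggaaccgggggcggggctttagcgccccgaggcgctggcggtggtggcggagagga

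In the Nfe2l2 stretch the core lay 240 to 232 bases before the start, on the strand of the gene. In the Mafg stretch it lay 222 to 214 bases before the start on the opposite strand, and in the Mafk stretch 13 to 5 bases before the start, also on the opposite strand. These distances run from the RefSeq start. GENCODE places the start of Mafk further upstream, so that its core lies inside the gene as given by GENCODE below. A match is a run of letters and was not tested as a binding site, and a window without it says nothing about binding elsewhere.

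Nfe2l2 (ENSMUSG00000015839, chromosome 2 from 75675513 to 75704641 on the minus strand of GRCm38) was read in all 6 MII libraries and in 11 of the 12 microdissected ones. Its counts were 1546, 0 and 132 for primordial sham and 261, 1470 and 1 for primordial NTY. For primary follicles they were 638, 210 and 730 (sham) and 2120, 2 and 21 (NTY). Both primordial groups and the primary NTY group thus joined a library with 1470 counts or more to another with 2 or fewer, whereas the primary sham libraries lay closer together. Mean levels were 36.1 ± 57.2 CPM (SD, n = 3) in primordial sham, 30.1 ± 51.4 in primary NTY, 24.7 ± 33.2 in primordial NTY and 22.4 ± 11.6 in primary sham, an order in which no neighbours differed beyond their spread.

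MII oocytes gave a tighter picture of Nfe2l2. Its sham libraries held 43.95, 28.76 and 16.52 CPM and its NTY libraries 36.98, 32.23 and 36.75 CPM. The NTY values lay inside the range of the sham values. The log2 fold change of NTY against sham was 0.25 with an SE of 0.47 and a 95% interval from -0.83 to 1.33 (adjusted p = 1, by the quasi-likelihood F test of edgeR, adjusted after Benjamini and Hochberg over 12209 genes), and without sham replicate 3 it was -0.065. In oocytes of early follicles the same test gave -0.71 (SE 2.88, interval from -6.50 to 5.08, adjusted p = 0.975) for primordial and 0.90 (SE 2.89, interval from -4.91 to 6.71, adjusted p = 1) for primary follicles. Neither sign was stable, since the primordial value was 2.70 without sham replicate 1 and the primary value -5.12 without NTY replicate 1. Without primordial NTY replicate 3 the primordial value was -0.33, and with primary NTY replicates 2 and 3 summed the primary value was 1.54.

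**Figure D1:**
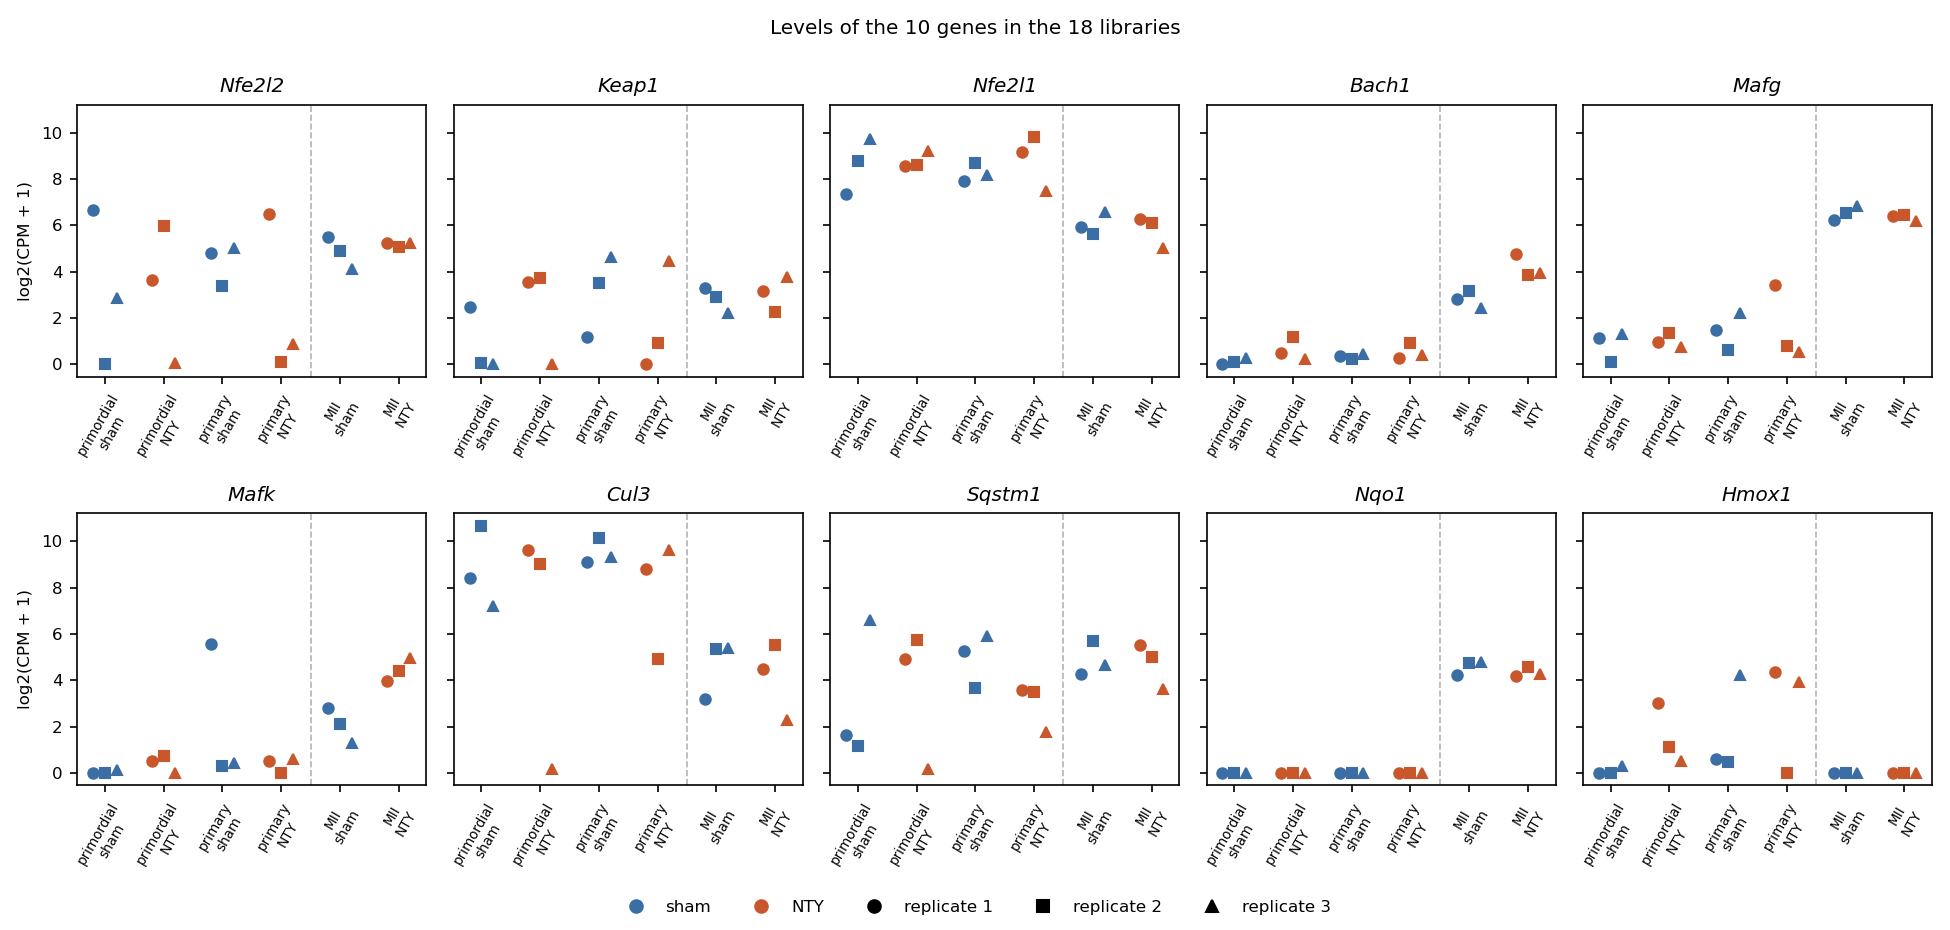
Levels of the 10 genes as log2(CPM + 1) in each of the 18 libraries, with sham in blue, NTY in orange, a symbol for each replicate number and a dashed line between microdissected and MII libraries. Nfe2l2, Keap1, Cul3, Sqstm1 and Hmox1 scatter widely in the microdissected groups, Nqo1 is at 0 there, and Hmox1 is at 0 in MII oocytes.

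Nfe2l1 (ENSMUSG00000038615) encodes NRF1, a relative of NRF2 that sits in the endoplasmic reticulum and drives proteasome genes. It was the steadiest member of the microdissected set, with 164.3 to 909.6 CPM and no library at or under 3 counts. Per length it stood above Nfe2l2 in 12 of 12 microdissected libraries, with medians of 240 and 8.79 TPM (counts divided by gene length, scaled to 1000000). In MII oocytes the medians were 29.7 and 23.8 TPM, and Nfe2l1 was the higher of the pair in 4 of 6 libraries. MII values of Nfe2l1 were 59.4, 48.8 and 94.06 CPM in sham and 76.72, 68.75 and 31.21 CPM in NTY, and the groups overlapped.

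Keap1 (ENSMUSG00000003308), the sensor that binds NRF2, was sparse in early follicles. Primordial sham libraries held 68, 1 and 0 counts and primordial NTY libraries 248, 291 and 0. In primary follicles the counts were 31, 234 and 565 in sham and 0, 21 and 537 in NTY. Groups overlapped at both stages, and 4 of the 12 libraries were at or under 3 counts. In MII oocytes Keap1 was at 8.874, 6.514 and 3.596 CPM in sham and 8.015, 3.748 and 12.83 CPM in NTY, again overlapping. Reads on an antisense transcript annotated across Keap1 (Gm16754) cannot be told apart from its own, as the strand setting of the counting is not given in the sources used here.

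Cul3 (ENSMUSG00000004364), the scaffold of the ligase, was the most abundant member per length in the microdissected set, with a median of 373 TPM, and exceeded Keap1 in 12 of 12 of these libraries. It had 5124, 48123 and 3079 counts for primordial sham and 17944, 12376 and 3 for primordial NTY, so the groups overlapped, with NTY replicate 3 at the floor. Primary sham libraries held 13363, 25382 and 15191 counts and primary NTY libraries 10613, 688 and 20009. In MII oocytes Cul3 was sixth of the 10 genes by median TPM (17.2 TPM), with 8.247, 40.39 and 41.35 CPM in sham and 21.53, 45.09 and 3.93 CPM in NTY. Values overlapped at every stage.

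Sqstm1 (ENSMUSG00000015837) encodes p62, an autophagy receptor that draws KEAP1 away from NRF2. In primary follicles the sham libraries held 37.23, 11.56 and 59.72 CPM and the NTY libraries 10.8, 10.36 and 2.373 CPM. By plain CPM every NTY library was below every sham library, as for 13.8% of the 10522 genes tested in this comparison, and the groups overlapped once library sizes were scaled by TMM (the trimmed mean of M values of edgeR). The log2 fold change was -1.57 with an SE of 2.80 (interval from -7.20 to 4.06, adjusted p = 1, edgeR). It was -1.52 with NTY replicates 2 and 3 summed. Primordial sham libraries held 32, 36 and 2049 counts and primordial NTY libraries 670, 1227 and 3, and the MII groups also overlapped, at 18.16, 50.71 and 24.39 CPM against 44.54, 30.84 and 11.21 CPM. Mrnip is annotated on the opposite strand across part of Sqstm1, and its reads could be counted with it.

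Mafk (ENSMUSG00000018143, chromosome 5 from 139791513 to 139802653) is a small Maf, a partner of both NRF2 and BACH1 without an activation domain of its own. In MII oocytes it was at 5.951, 3.307 and 1.461 CPM in sham (57, 33 and 13 counts) and at 14.66, 20.45 and 29.93 CPM in NTY (128, 191 and 259 counts). All 3 NTY libraries were above all 3 sham libraries, and the lowest NTY value was above the highest sham value with both plain and TMM-scaled CPM. The means were 21.7 ± 7.71 and 3.57 ± 2.26 CPM (SD, n = 3), a log2 fold change of 2.60 with an SE of 0.74 and a 95% interval from 0.93 to 4.28 (adjusted p = 0.877, edgeR). The gene therefore did not pass the test, in which it ranked 91 of 12209 genes by p. An exact two-sided permutation test of log2(CPM + 1) gave p = 0.1, the smallest value that 3 libraries against 3 allow. Groups without overlap always give this value, so it adds nothing to their separation.

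Bach1 (ENSMUSG00000025612, chromosome 16 from 87698945 to 87733346), the repressor that competes with NRF2 for the same elements and that heme releases from DNA, was separated in the same direction. Sham libraries held 6.159, 8.117 and 4.383 CPM (59, 81 and 39 counts) and NTY libraries 26.45, 13.39 and 14.22 CPM (231, 125 and 123 counts). Again no NTY library reached down into the sham range. Its log2 fold change was 1.56 with an SE of 0.61 (interval from 0.18 to 2.94, adjusted p = 1, edgeR). The exact permutation test gave p = 0.1, again the value fixed by the lack of overlap. The fold change was 1.18 without NTY replicate 1 and 1.34 without sham replicate 3.

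Of the 9 members tested in MII oocytes, 0 passed an adjusted p of 0.05 in edgeR, 0 in DESeq2 and 0 in limma with voom, and 2 (Mafk and Bach1) had an unadjusted p under 0.05. Over all genes tested edgeR called 0% and DESeq2 0.238% at the adjusted threshold, 0.426% were higher in NTY at the unadjusted one, and 2.3% had every NTY library above every sham library, against the 2 members. DESeq2 gave Mafk an adjusted p of 0.101. Over 13 alternatives the log2 fold change of Mafk stayed between 2.20 and 3.29, with adjusted p from 0.101 to 1, and that of Bach1 between 1.18 and 1.76.

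Other measures separated the MII groups too. The NTY libraries detected 12782 to 13608 genes and the sham libraries 15442 to 18239. The share of tested genes at or under 3 counts was 9.12 to 13.3% in NTY and 0.737 to 4.28% in sham, and the granulosa markers summed to 42.8 to 57.7 CPM in NTY and 27.9 to 41.7 CPM in sham (Foxl2, Amhr2 and Wt1 were at or under 3 counts in all 6 libraries). Tmem184a, which overlaps Mafk on the opposite strand, held 14, 5 and 8 counts in sham and 4, 54 and 31 in NTY. The part of these measures in the Mafk and Bach1 values was not tested, and in NTY replicate 1, where Tmem184a was at 4 counts, Mafk was at 128.

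**Figure D2:**
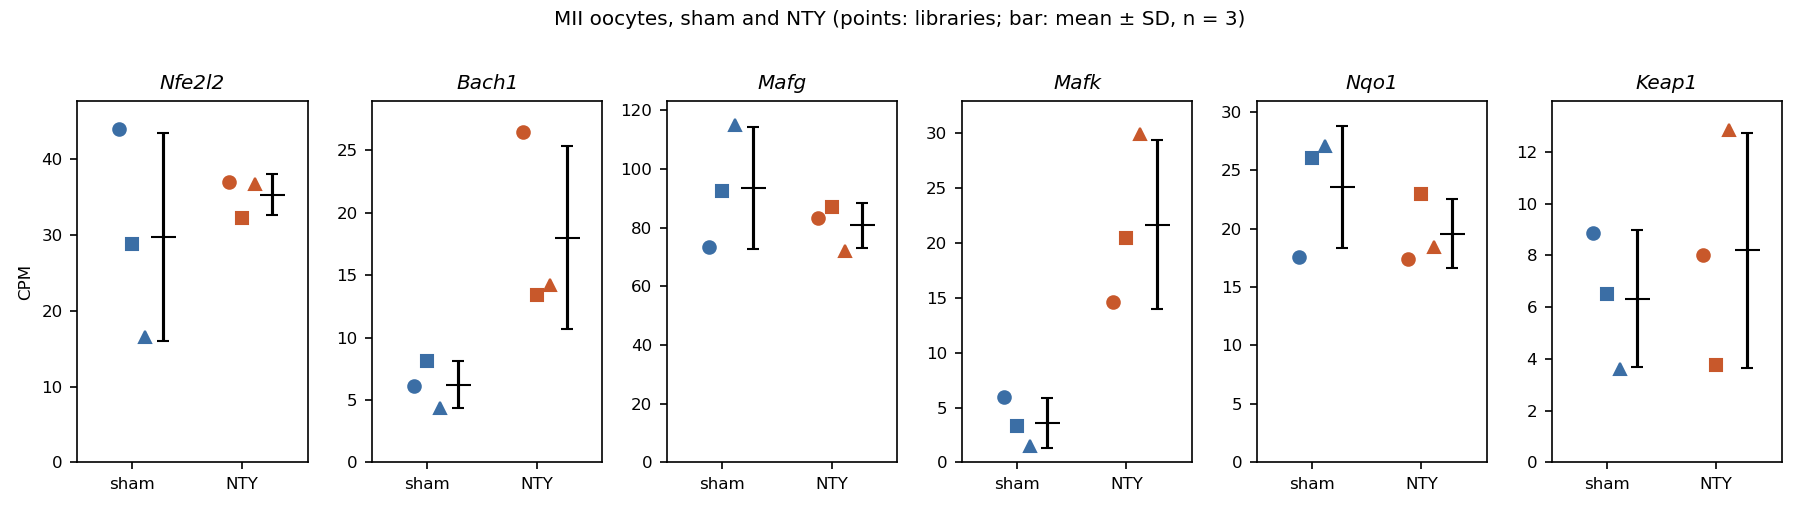
CPM of 6 of the genes in MII oocytes, sham and NTY, with each library as a point and the mean ± SD (n = 3) as a bar; each panel has its own axis from 0. Mafk and Bach1 show no overlap between the groups, at 21.7 against 3.57 and 18.02 against 6.22 CPM on average, whereas Nfe2l2, Mafg, Nqo1 and Keap1 overlap.

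Mafg (ENSMUSG00000051510), the other small Maf of the set, ranked first of the 10 genes in MII oocytes by median TPM (39.8). It was at 73.49, 92.4 and 115.0 CPM in sham and 83.36, 86.85 and 72.01 CPM in NTY, and the groups overlapped. In each of the 6 MII libraries Mafg exceeded Mafk per length. Of the summed TPM of Mafg, Mafk and Maff, Mafk made up 10.4, 4.84 and 1.8% in sham and 20.2, 25.3 and 37.4% in NTY, a ratio that was formed after the values were seen and is given as a description. Maff, the third small Maf, was at or under 3 counts in 5 of 6 MII libraries. Mafg shares annotated sequence with Sirt7, which runs on the same strand.

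In early follicles the DNA-binding partners were mostly low, with medians of 1.06 CPM for Mafg, 0.282 for Mafk and 0.252 for Bach1. In the same order, 1, 5 and 2 of the 12 libraries were at or under 3 counts. Mafg ranged from 0.0685 to 9.79 CPM over the 12 microdissected libraries and Bach1 from 0 to 1.27 CPM, and Bach1 was too low to be tested there. Mafk had 0, 0 and 2 counts among primordial sham libraries, 10, 15 and 0 among primordial NTY, 10, 0 and 13 among primary NTY and 1120, 5 and 8 among primary sham. All of the height of the last group was in replicate 1. Tmem184a on the other strand held 1677 counts in that library, 794 in primordial NTY replicate 2 and 455 in primary sham replicate 3. In these libraries Mafk had 1120, 15 and 8 counts. The part of Tmem184a reads in the Mafk values was not tested. Primary sham libraries were above primordial sham libraries without overlap, as for 14.5% of all genes in that direction, and the CPM ratio was 530 (95% counting interval from 146 to 4380) with replicate 1 and 9.25 (from 2.09 to 84.4) without it. Mafk was also the only member with an unadjusted p under 0.05 in that comparison, as were 8.67% of all genes in that direction. The edgeR log2 fold change of 8.30 (SE 3.76, adjusted p = 0.482) depends on the prior count for so few reads, and without replicate 1 it was 2.66 (adjusted p = 1). In edgeR 0 members were called there (0.0095% of all genes), and DESeq2 called 1, Mafk, with an adjusted p of 0.0206, where it called 7.29% of all genes. DESeq2 was run without its filter for outlying counts, and its call of Mafk was not tested without replicate 1.

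Nqo1 (ENSMUSG00000003849, chromosome 8 from 107388225 to 107403206 on the minus strand) encodes a quinone reductase that serves as the standard readout of NRF2. It had 0 counts in each of the 12 microdissected libraries, and 3 counts over their 280831624 counts would have been 0.0107 CPM. In MII oocytes it was at 17.54, 26.06 and 27.08 CPM in sham (168, 260 and 241 counts) and 17.4, 22.92 and 18.38 CPM in NTY (152, 214 and 159 counts). These groups overlapped, with a log2 fold change of -0.24 and an SE of 0.43 (interval from -1.20 to 0.73, adjusted p = 1, edgeR). Per length Nqo1 was the second of the 10 genes in MII oocytes (median 34.9 TPM) and exceeded Nfe2l2 in 5 of 6 libraries. Other genes had the same layout, since of 4800 genes with at least 100 counts in every MII library 219 (4.56%) were at 0 in all 12 microdissected libraries.

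Hmox1 (ENSMUSG00000005413, chromosome 8 from 75093621 to 75100589) encodes heme oxygenase, which breaks down heme and is repressed by BACH1. It showed the reverse layout, with 0 counts in each of the 6 MII libraries, where 3 counts over 55179738 would have been 0.0544 CPM. Of 7606 genes with at least 10 counts in 6 or more microdissected libraries, 388 (5.1%) were at 0 in all MII libraries. Primordial sham libraries held 0, 0 and 5 counts of Hmox1 and primordial NTY libraries 164, 28 and 11, so that every NTY library was higher, as for 5.19% of all genes tested. The ratio of CPM was 36.3 (95% counting interval from 15.3 to 113). Between the libraries the spread was larger than this interval allows for, and edgeR gave a log2 fold change of 5.12 with an SE of 3.35 (interval from -1.63 to 11.87, adjusted p = 0.613). Without primordial NTY replicate 3 the value was 5.58 (adjusted p = 0.634), without NTY replicate 1, which held 164 of the 203 NTY counts, it was 3.29, and without sham replicate 3, which held all 5 sham counts, it was 9.15.

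Hmox1 did not separate the groups of primary follicles. Its counts were 12, 9 and 418 in sham and 466, 0 and 360 in NTY, with a log2 fold change of 1.39 (SE 2.87, interval from -4.38 to 7.17, adjusted p = 1, edgeR). With NTY replicates 2 and 3 summed it was 1.76, without NTY replicate 1 it was 0.71, and without sham replicate 3 it was 4.93. Primary sham libraries were all above primordial sham libraries, as for 14.5% of all genes tested (log2 fold change 5.73, SE 3.45, adjusted p = 0.699, edgeR). The CPM ratio was 82.2 (95% counting interval from 35 to 254) and was carried mostly by replicate 3. Macrophage markers, 8 genes, varied among the same libraries. Their summed CPM was 0.0474 to 0.726 in primordial sham, 0.17 to 14.7 in primordial NTY, 0 to 3.63 in primary sham and 0.301 to 36.5 in primary NTY, with 0 to 6 of the 8 genes above 3 counts in a library. The highest Hmox1 library, primary NTY replicate 1, also had the highest macrophage sum of the early follicles. By contrast, primary sham replicate 3 had 418 Hmox1 counts at 3.63 CPM of macrophage markers. Csf1r, a macrophage growth factor receptor, had 778, 7 and 345 counts in primary NTY and 44, 0 and 13 in primordial NTY. It had 0 in all sham libraries of these early follicles. In MII oocytes, where Hmox1 was at 0, Csf1r was above 3 counts in every sham and NTY library, with a median of 19.3 CPM. Lyz2 had 44, 0 and 166 counts in primary NTY and 0, 5 and 83 in primary sham. Csf1r and Lyz2 were the 2 of the 8 genes that could be tested in early follicles. Their edgeR log2 fold changes of NTY against sham were 7.435 and 6.138 in primordial follicles and 11.604 and 1.666 in primary follicles. Of the 2 genes edgeR called 0 in primordial and 0 in primary follicles (0.0095% and 0% of all genes). DESeq2 called 0 and 1 (11.8% and 7.09% of all genes). Of the other markers, Cd14 was at or under 3 counts in all 12 microdissected libraries and Adgre1 in 11 of them. In these libraries Cd68 reached at most 20 counts in sham and 8 in NTY, and C1qa 11 and 26. C1qb reached 18 in sham and 345 in NTY, and Ptprc 0 and 34. The part of macrophage RNA in the Hmox1 values was not tested.

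**Figure D3:**
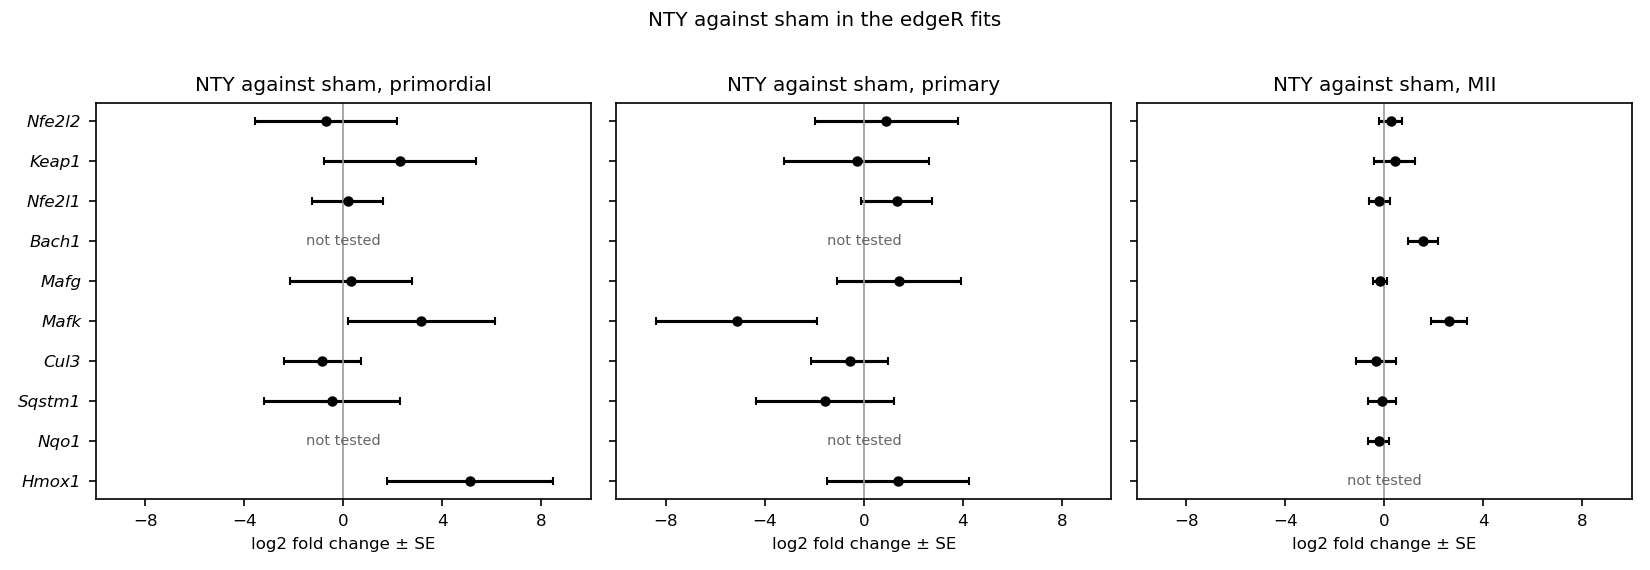
Log2 fold changes of NTY against sham with their SE from the edgeR fits, one panel per stage, with untested genes marked. In MII oocytes Mafk (2.60) and Bach1 (1.56) lie farthest from 0, whereas the SE of the microdissected panels runs from about 1.4 to 3.4 log2 units.

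For the 8 members tested in early follicles, edgeR called 0 at an adjusted p of 0.05 in primordial follicles and 0 in primary follicles, with 0 and 0 at an unadjusted p under 0.05 (10.9% and 8.15% of all genes), and DESeq2 also called 0 and 0. All genes were called at 0.0095% and 0% by edgeR, and at 11.8% and 7.09% by DESeq2. The test of the difference between the NTY effects of the stages called 0 members (0.0095% of all genes), with the smallest p for Mafk (-8.29 on the log2 scale, adjusted p = 0.473), and the comparisons of primary with primordial NTY follicles, of NTY with sham over both stages and of the stages over both treatments called 0 as well (0%, 0.0095% and 0% of all genes). In these 4 comparisons 0 members had an unadjusted p under 0.05, a threshold that 11.8, 9.97, 11 and 10.8% of all genes passed in the order given. DESeq2 called 0 members and 11.8, 11.3, 10.6 and 10.3% of all genes. The common dispersion (the square of the replicates' relative spread) was 3.59 in the microdissected fit and 0.542 in the MII fit. Among members the dispersion estimated for each gene (tagwise) was lowest for Nfe2l1 (1.84) and highest for Keap1 (4.8) in early follicles. In MII oocytes the tagwise value ran from 0.0905 for Mafg to 0.549 for Keap1. Median folds of all genes were shifted from 0 by 0.12 (log2) in primordial follicles, -0.10 in primary follicles, 0.29 between the sham stages and 0.00 in MII oocytes.

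Detection set a limit on what could be seen. In the microdissected set 32 of the 120 values of the 10 genes were at or under 3 counts, and in the MII set 6 of 60, all of them Hmox1. The loss was uneven. It affected 4, 7 and 3 genes in the primordial sham libraries, 1, 1 and 6 in primordial NTY, 1, 1 and 1 in primary sham and 2, 4 and 1 in primary NTY. The tested genes as a whole behaved alike, as 49, 32.1 and 29.1% of them were at or under 3 counts in primordial sham and 56% in primordial NTY replicate 3, against 6.47 to 24.7% in primary sham. The primordial sham group, the baseline of the Hmox1 and Mafk contrasts, was thus among those in which many genes were missed.

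**Figure D4:**
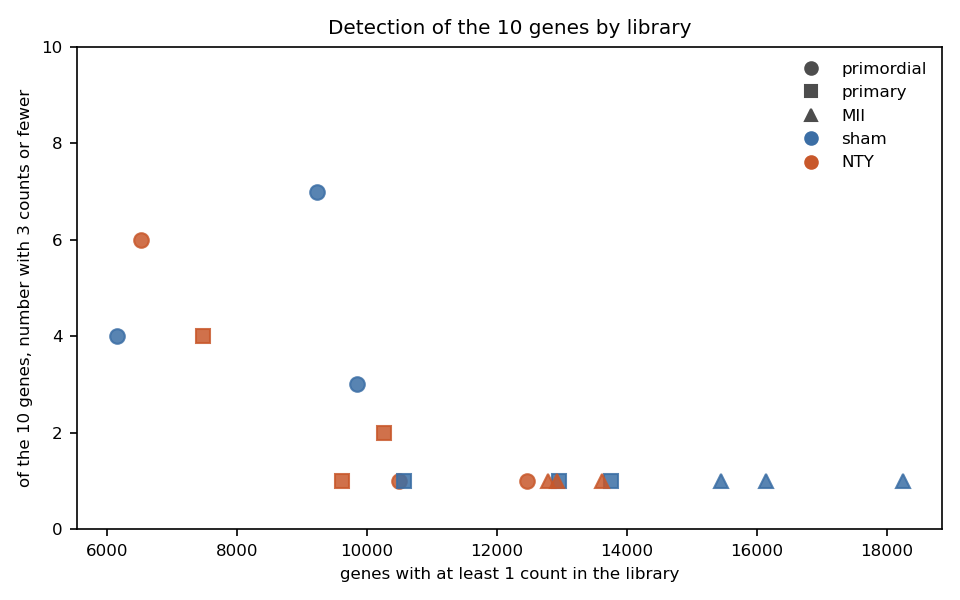
Number of the 10 genes with 3 counts or fewer (vertical) against all genes detected with 1 count or more (horizontal) in each library, by stage (symbol) and group (colour). Libraries that detected at most 9852 genes missed between 1 and 7 of the 10, and every MII library missed 1, which was Hmox1.

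The genes whose levels tracked Nfe2l2 most closely differed between the sets. Over the 12 microdissected libraries they were Mif (Pearson's r of log2(CPM + 1) of 0.934), Mbd5 (0.921), Fnip1 (0.916), Eif3i (0.914) and Pdap1 (0.912), out of 10521 genes. Over the 6 MII libraries they were Psmd7 (0.978), Slc35b4 (0.968), Mmp12 (0.964), Mcu (0.956) and Gtf2f1 (0.954), out of 7074. Libraries in each set share depth, detection and treatment groups, and with 12 and 6 points such values are a description. Among the members Mafg was closest in the microdissected set (0.695), and in the MII set Mafg had the opposite sign (-0.95).

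The wider pathway was read from a list of 44 listed NRF2 target genes and another of 28 listed regulators, both without the 10 members. In MII oocytes 27 targets were tested, of which edgeR called 0, DESeq2 called 0 and 0 had an unadjusted p under 0.05, with a median log2 fold change of -0.06 where that of all genes was 0.00. Gsta4, a glutathione transferase for lipid aldehydes, was at 4.07, 4.31 and 3.48 CPM in sham and 11.2, 8.25 and 6.93 CPM in NTY (log2 fold change 1.17). Ptgr1, a reductase of reactive aldehydes and prostaglandins, was at 1.36, 1.9 and 1.69 CPM in sham and 5.95, 2.57 and 3.58 CPM in NTY (log2 fold change 1.33). These 2 of the 27 were the targets whose MII groups did not overlap, both higher in NTY, as were 2.3% of all genes. Slc7a11, the cystine importer that feeds glutathione synthesis, overlapped (log2 fold change 0.43), and the adjusted p of all 3 was 1 in edgeR.

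Among 25 regulators tested in MII oocytes edgeR and DESeq2 called 0, and edgeR gave 2 an unadjusted p under 0.05 (2.29% of all genes). Fbxw11, a substrate receptor that takes NRF2 to a second ligase independently of KEAP1, was at 49.9, 49.9 and 58.2 CPM in sham and 24.3, 20.5 and 26.0 CPM in NTY (log2 fold change -1.12, adjusted p = 1, edgeR). Vcp, the segregase that extracts ubiquitinated proteins, was at 24.7, 30.4 and 23.4 CPM in sham and 34.1, 73.1 and 71.9 CPM in NTY (log2 fold change 1.23, adjusted p = 1, edgeR). Cand1, which exchanges the substrate receptors of cullins, was lower in NTY without overlap, at 95.8, 152.0 and 105.0 against 74.1, 87.3 and 68.9 CPM (log2 fold change -0.58), as were 6% of all genes.

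In primordial follicles edgeR called 0 of 31 targets and DESeq2 3, where they called 0.0095% and 11.8% of all genes. By edgeR 1 target was higher and 2 lower at an unadjusted p under 0.05 (7.64% and 3.24% of all genes), 2 were higher and 2 lower without overlap (5.19% and 2.78% of all genes), and the median log2 fold change was -0.36 against 0.12 for all genes. Slc7a11 had the smallest p (adjusted p = 0.405, edgeR), with 129, 53183 and 604 counts in sham and 0, 31 and 1 in NTY, and these groups did not overlap. Prdx1, a peroxidase, was the other target that was lower without overlap, at 479, 236 and 266 CPM in sham and 84, 157 and 152 CPM in NTY. The higher ones were Abcc1, an exporter of glutathione conjugates, at 43.1, 58.3 and 19.9 CPM in sham and 85.8, 66.8 and 176 CPM in NTY, and Mgst1, at 3 counts or fewer in every library of both groups. The DESeq2 calls were Slc7a11, Taldo1, an enzyme of the pentose phosphate pathway, and Ptgr1. Taldo1 went from 6519, 530 and 2 counts in sham to 49, 27 and 6 in NTY and overlapped. Ptgr1 had 0 counts in all sham libraries and 2, 0 and 37 in NTY, of which the last is the library with few oocyte transcripts. Without that library DESeq2 still called Slc7a11 (adjusted p = 0.0036), Taldo1 (0.0462) and Ptgr1 (0.000156), the last on 2 counts against none, while edgeR gave Ptgr1 a log2 fold change of 3.25 in place of 7.19. Of 21 regulators edgeR called 0 and DESeq2 1, namely Rbx1, the RING subunit beside CUL3, with 24, 3 and 17 counts in sham and 1753, 6 and 14627 in NTY, groups that overlapped (adjusted p = 0.405, edgeR). Without NTY replicate 3 DESeq2 no longer called Rbx1 (adjusted p = 0.378).

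In primary follicles edgeR called 0 of 31 targets and DESeq2 2, where they called 0% and 7.09% of all genes. The median log2 fold change was 0.10 against -0.10 for all genes. Gstp1, a glutathione transferase whose reads cannot be separated with certainty from those of its near-identical copy Gstp2, had 242, 34 and 483 counts in sham and 1, 0 and 0 in NTY (adjusted p = 0.564, edgeR). Gsr, glutathione reductase, was the other DESeq2 call (adjusted p = 0.0153), with 74, 2 and 7 counts in sham and 133, 3782 and 13 in NTY, and overlapped. Of 21 regulators edgeR called 0 and DESeq2 1, Dpp3, a peptidase that binds KEAP1 in competition with NRF2. Its counts were 1140, 924 and 1619 in sham and 1, 0 and 21 in NTY (adjusted p = 0.56, edgeR). With NTY replicates 2 and 3 summed DESeq2 called Dpp3 (adjusted p = 0.0198) but neither Gstp1 (0.0604) nor Gsr (0.0863). In these NTY libraries 26.1, 45.3 and 28.8% of all tested genes were at or under 3 counts, and 13.8% of genes were lower in NTY without overlap.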

How the data were processed

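The authors deposited whole-number read counts for 53715 genes and TPM for 28252 of them (each column sums to 1000000). The submitters' processing notes name Trim Galore 0.4.1, TopHat2, featureCounts and mm10; gene lengths, strand setting and the handling of reads that match several genes are not given in the sources used here. Library groups came from the labels. Counts were joined to symbols by Ensembl identifier, and positions were read from GENCODE M21 on GRCm38.

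Counts were tested with edgeR 4.0.16 in R 4.3.3 (robust quasi-likelihood, TMM, filterByExpr, adjusted p under 0.05), the 12 microdissected libraries in a shared fit (10522 genes) and the 6 MII libraries alone (12209 genes). The SE is the log2 fold change divided by the root of F. The alternatives were RLE, DESeq2 1.42.0, limma 3.58.1 (voom with quality weights, or log2(TPM + 1) and log2(TPM + 0.1) for genes with at least 1 TPM in 3 libraries), a filter on any count, a replicate block, only the groups compared, primary NTY replicates 2 and 3 summed, and each library left out; refits of the named DESeq2 calls in the pathway lists were added after seeing the data. DESeq2 was run throughout with its filter and its replacement of outlying counts switched off. Tests were tried on simulated data. Levels, exact tests and intervals were computed with scipy 1.17.1, pandas 2.3.3 and numpy 2.4.6 in Python 3.11.15.

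Members, gene lists (including oocyte, granulosa, stroma, macrophage, erythroid and endothelial markers) and tests were chosen with earlier results of these data known. Fold changes are printed for members with an unadjusted p under 0.05 or no overlap of CPM, and for Nfe2l2, Nqo1 and Hmox1 between NTY and sham; the Mafk difference between stages was added after its value was seen. Up to 6 genes per pathway list, by smallest p, and the 5 genes most like Nfe2l2 could be named. Maff, Tmem184a, the Mafk share, DESeq2 calls and the targets named for not overlapping fall outside this rule. The paper describes an ovary culture and not this sequencing.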

Additional observations from a re-analysis of the deposited data

How the results depend on the processing

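The number of members called was 0 in all 8 comparisons and stayed 0 under the alternatives run, except that DESeq2 called 1 (Mafk) between primary and primordial sham follicles. With a floor of 10 counts in place of 3, 46 of the microdissected values were at or under it (32 at 3 counts), and 6 of the MII values as before. For Nfe2l2 between NTY and sham the sign turned, without any call. In primordial follicles (-0.71) it was 2.24 with voom, 0.07 on log2(TPM + 1) and 0.22 on log2(TPM + 0.1), and from -2.57 to 2.70 as libraries were left out. In primary follicles (0.90) it was -2.77, -1.78 and -2.94 in the same order, and from -5.12 to 1.54. In MII oocytes (0.25) it ran from -0.065 to 0.74 as libraries were left out. The cause was not tested. Mafk and Bach1 in MII oocytes, Hmox1 and Sqstm1 kept their direction under the alternatives in which they were tested, with Hmox1 in primordial follicles between 1.97 and 9.15. Between the sham stages Mafk was too low for the TPM filter.

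Same-numbered libraries did not deviate together (correlations of their deviations from -0.063 to 0.066), so the numbers were not read as pairs. A replicate block gave Nfe2l2 log2 fold changes of 2.43 in primordial and -2.46 in primary follicles, and 0 members called in each comparison. With a dispersion of 3.59 the printed intervals for early follicles were wide, so the absence of a call there does not show the absence of a difference.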

Other observations

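Other genes of the pathway differed in level between the library sets, which stage and library method together define. Fth1, the heavy chain of the iron store ferritin, had a median of 4870 TPM in the microdissected libraries and 93.9 TPM in MII oocytes, and its partner Ftl1 74.8 and 151 TPM. Prdx1, a peroxidase that removes hydrogen peroxide, was read with at least 1905 counts in each of the 18 libraries, at medians of 259 and 438 TPM. Gclc, the catalytic subunit of the first enzyme of glutathione synthesis, was at 70.1 and 4.98 TPM and catalase (Cat) at 41.4 and 1.09 TPM. Bach2, a relative of BACH1, was at 13.8 TPM in MII oocytes and at or under 3 counts in 6 of the 12 microdissected libraries, and Nfe2, another partner of small Mafs, was at or under 3 counts in all 18. Erythroid markers summed to at most 1.15 CPM in every library but primary sham replicate 1 (40.8 CPM). There Hba-a1, with 976 counts, was the only 1 of these markers above 3 counts. Endothelial markers summed to 0.043 to 842 CPM in microdissected and 109 to 174 CPM in MII libraries.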
